A study of Rattus norvegicus with 7 samples.

Results

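RNA of lenses treated with glutamate after galactose was compared with RNA of lenses that had received neither, to ask what still differed from control once glutamate had been present. The comparison used 4 of the 7 arrays of the series, 2 labelled Glutamate and 2 labelled Control, and all probes with a platform gene whose log2 signal was above 5 in at least 1 of these 4 arrays. This left 4958 of 19086 probes, and those with a single gene named 4684 of 18166 genes. The lenses came from Sprague Dawley rats, male and 6 weeks old according to the methods of the study, and were cultured whole in M199 medium. The Control lenses were cultured without galactose, with sterile water in its place, for 4 days on 1 array (Control Day 4) and for 6 days on the other (Control Day 6). The lenses of both Glutamate arrays spent 6 days in medium with 30 mM galactose, and 20 mM glutamate, added as its sodium salt, was present during the final 3 days. The groups therefore differed in galactose and in glutamate at once, and Control Day 4 also in time, so that these factors cannot be told apart here. Nothing states that the arrays of a group came from separate animals, so p-values measure only the spread between these samples.

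In this model of cataract, galactose enters the lens and is reduced by aldose reductase to galactitol, a sugar alcohol that leaves the cell slowly, draws in water and swells the fibres. Cells under osmotic load gather small compatible solutes such as myo-inositol, taurine and neutral amino acids through dedicated transporters, and Nfat5 is the transcription factor that drives the genes of these transporters when the surroundings are hypertonic. Glutamate feeds the tricarboxylic acid cycle through alpha-ketoglutarate and is a building block of glutathione, the main antioxidant of the lens. The lens is built from a single layer of epithelium over fibres filled with crystallins and has no vessels.

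Carriers of osmolytes lay far below control after glutamate. Of all tested probes, the 2 with the widest gaps between the Glutamate and the Control arrays were Slc5a3 and Slc6a6, and a carrier of neutral amino acids, Slc38a2, was close behind. The signals of Slc5a3, the sodium-coupled myo-inositol transporter, were 5.41 and 5.64 on the log2 scale in Control Day 4 and Day 6 and 1.84 and 1.17 in the Glutamate arrays. The difference was -4.02 ± 0.35 (Glutamate minus Control on the log2 scale, SE from limma, n = 2 and 2), with a 95% interval from -4.98 to -3.06. Both Glutamate signals of Slc5a3 lay below the median of all probes on these arrays (2.83 and 2.88), so the size of this difference is uncertain. The signals of Slc6a6, the taurine transporter, were 6.80 and 7.55 in Control and 4.20 and 4.30 in Glutamate, a difference of -2.92 ± 0.36. Slc38a2 gave 7.96 and 9.11 against 5.86 and 5.43, a difference of -2.89 ± 0.49. In each of these 3 genes the lower Control array stood more than 4-fold above the higher Glutamate array, and no other probe did so in this direction.

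None of these differences passed the test across all probes. Limma, fitted on the 4 arrays with Benjamini-Hochberg adjustment over 4958 probes, called 0 probes higher and 0 lower at an adjusted p under 0.05 (0% of those tested in each direction), and the smallest adjusted p was 0.973. Before adjustment, p was under 0.05 for 39 probes with higher signals in Glutamate (0.787%) and for 60 with lower ones (1.21%). An exact permutation test of a single value over 2 and 2 arrays cannot give a two-sided p below 0.333, so what follows is given as array values and as counts of groups that did not overlap. A probe was counted as separated when the nearest Glutamate and Control arrays were at least 2-fold apart. There were 12 such probes with higher signals in Glutamate (0.242% of those tested) and 8 with lower signals (0.161%). The methods of the study describe the RNA only as lens RNA, so fewer cells of a type and less RNA per cell cannot be told apart here.

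The promoters of the genes with a gap of at least 4-fold are printed here because these genes lay farthest from both Control arrays, 3 lower and 2 higher in Glutamate. A promoter entry was found for 4 of the 5, and none was matched for Slc16a6. Each run covers 250 bases before to 50 bases after the start of the gene, 5′ to 3′ on its own strand, from RefSeq on build GRCr8. The positions are chr11:44799537-44799836 (plus strand) for Slc5a3, chr4:125752252-125752551 (plus) for Slc6a6, chr7:129742570-129742869 (minus) for Slc38a2 and chrX:17020655-17020954 (plus) for Rbm3. Capitals mark matches, on either strand, to any of 5 motifs described after the sequences.
Slc5a3: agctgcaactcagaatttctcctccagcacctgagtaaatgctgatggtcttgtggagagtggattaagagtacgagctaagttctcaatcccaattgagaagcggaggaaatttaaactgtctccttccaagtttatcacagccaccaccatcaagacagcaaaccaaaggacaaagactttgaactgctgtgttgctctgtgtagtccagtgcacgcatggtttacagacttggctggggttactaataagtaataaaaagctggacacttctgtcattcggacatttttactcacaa
Slc6a6: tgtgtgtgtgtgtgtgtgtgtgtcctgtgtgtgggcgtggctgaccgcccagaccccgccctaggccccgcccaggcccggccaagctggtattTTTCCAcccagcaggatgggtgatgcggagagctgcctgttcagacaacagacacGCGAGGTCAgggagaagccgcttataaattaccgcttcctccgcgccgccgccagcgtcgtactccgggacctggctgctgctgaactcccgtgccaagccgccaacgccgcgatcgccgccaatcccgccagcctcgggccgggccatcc
Slc38a2: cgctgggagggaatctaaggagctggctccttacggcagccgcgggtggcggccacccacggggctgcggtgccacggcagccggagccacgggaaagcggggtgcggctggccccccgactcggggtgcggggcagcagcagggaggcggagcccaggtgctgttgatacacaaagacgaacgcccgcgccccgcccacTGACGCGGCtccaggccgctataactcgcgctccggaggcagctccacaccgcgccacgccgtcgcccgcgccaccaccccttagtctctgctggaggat
Rbm3: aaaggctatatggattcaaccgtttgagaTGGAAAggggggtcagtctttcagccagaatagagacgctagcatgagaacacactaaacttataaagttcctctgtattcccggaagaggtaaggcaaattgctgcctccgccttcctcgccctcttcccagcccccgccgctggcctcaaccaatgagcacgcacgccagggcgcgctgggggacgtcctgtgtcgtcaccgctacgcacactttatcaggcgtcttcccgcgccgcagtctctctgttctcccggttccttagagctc

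The motifs searched on both strands were the core of the tonicity element bound by Nfat5 (TGGAAA), the core of the antioxidant response element bound by Nrf2 (TGACNNNGC), an Atf4 element core (TGATGNAA), the AP-1 site (TGANTCA) and the E-box (CACGTG). The tonicity core was held by 22.4% of all 27457 rat promoters of this length and by 14.55% of the 3952 that belong to tested genes. It was found in Slc6a6 and in Rbm3, that is, in a gene that lay lower and in one that lay higher in Glutamate. Among the 15 genes with the largest gaps downward it was also found in Inhba, Slc38a4 and Trpm3, which makes 4 of 15 promoters, and among the 11 matched promoters of the 15 largest gaps upward it was found in Rbm3 and Nasp. The antioxidant core, held by 12.2% of all promoters and 15.4% of those of tested genes, was in Slc6a6 and Slc38a2. It was in none of the 11 matched genes with higher signals. No match to any of the 5 motifs lay in this window of Slc5a3. These matches are letters in a window of 300 bases and describe neither binding nor use.

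Of 16 listed genes of osmolyte transport and of the response to tonicity, 12 were tested, and in 8 of them both Glutamate arrays lay below both Control arrays. The background for this count is that 16.0% of the 4684 tested genes had both Glutamate arrays below both Control arrays and 12.7% had both above. In none of the 12 did both Glutamate arrays lie above, and in 4 the gap downward was at least 2-fold. These 4, Slc5a3, Slc6a6, Slc38a2 and Aqp1, also had the 4 largest gaps downward of all tested genes. The list was written with earlier results of these data known, so its counts are a description and not a test. Of the 8 genes below, 4 (Slc5a3, Slc6a6, Slc12a2 and Lrrc8a) had passed the filter through Control arrays alone, so the filter itself favoured lower values in Glutamate. Among the 8 tested genes with a signal above 5 in both groups, 4 lay below, where 14.1% of all such genes did. Without any filter 9 of all 16 lay below and 0 above, where 10.8% and 11.2% of all 18166 genes did. The median difference of the 12 genes was -0.69 on the log2 scale, where that of all tested genes was 0.05. Their median signal was 6.43 and 6.78 in Control Day 4 and Day 6 and 5.06 and 5.30 in the Glutamate arrays, so the list was low against each Control array taken alone (-0.74 against Day 4 and -0.86 against Day 6). Under a filter above 6 the median was -1.24, and with no filter it was -0.32.

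**Figure D1:**
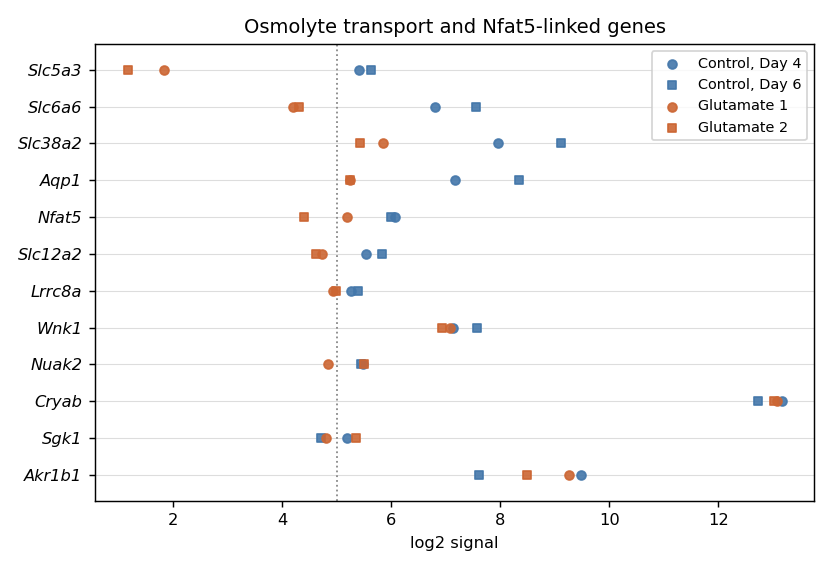
Log2 signal (x axis) of the 12 tested genes of osmolyte transport and the tonicity response (y axis) in the 4 arrays, 1 point per array, with blue for Control, orange for Glutamate and the dotted line at the filter of 5. Both orange points lie left of both blue points in 8 genes, from Slc5a3 (1.84 and 1.17 against 5.41 and 5.64) to Wnk1 (7.09 and 6.94 against 7.13 and 7.58), and between them in Akr1b1 and Cryab.

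Transporters and channels made up most of these 8 genes. Aqp1, the water channel of the lens epithelium, had signals of 7.17 and 8.34 in Control and 5.24 in each Glutamate array, a difference of -2.52 ± 0.48. Slc12a2, the sodium-potassium-chloride cotransporter that loads cells with salt, had 5.54 and 5.83 against 4.73 and 4.62 (-1.01 ± 0.27). Lrrc8a, a subunit of the volume-regulated anion channel, lay a little lower at 4.93 and 4.99 in Glutamate against 5.27 and 5.39. The ranking among them was wide, since the Slc5a3 means were 16.2-fold apart and those of Lrrc8a 1.29-fold. The size of the Slc5a3 ratio is uncertain, because its Glutamate signals lay below the median of all probes.

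The regulators on the list were divided. Nfat5 itself had signals of 6.07 and 6.00 in Control and 5.18 and 4.40 in Glutamate, a difference of -1.24 ± 0.37. Wnk1, a kinase that senses chloride and volume, had 7.13 and 7.58 against 7.09 and 6.94, with arrays of the groups almost touching. The kinases Nuak2 and Sgk1 overlapped between the groups, with 5.49 and 5.44 against 4.84 and 5.51 for Nuak2 and 5.19 and 4.72 against 4.81 and 5.36 for Sgk1. Aldose reductase, Akr1b1, the enzyme that makes galactitol and a known Nfat5 target, stood apart from the transporters: its signals of 9.26 and 8.49 in Glutamate lay between the Control values of 9.49 and 7.60. Its difference of 0.33 ± 0.76 had a 95% interval from -1.76 to 2.42, which leaves room for a change of over 2-fold in either direction. The chaperone alphaB-crystallin, Cryab, also on the list, lay inside the Control range at 13.07 and 13.03 against 13.16 and 12.72.

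Related transporters outside the list lay on either side. Slc38a4, another carrier of neutral amino acids, had signals of 5.23 and 4.57 in Control and 3.67 and 3.03 in Glutamate (-1.55 ± 0.40). Of 7 tested transporters of other amino acids, 4 had both Glutamate arrays below both Control arrays and 2 had both above, and without Slc6a6, which is counted above, 3 of 6 were below. Of all tested genes 16.0% lay below and 12.7% above. Slc6a6, Slc38a4 and Slc7a1 had passed the filter through Control arrays alone. Of the 4 transporters with a signal above 5 in both groups, 1 lay below and 2 above. The low ones included Slc38a4 and the cationic carriers Slc7a2, at 6.91 and 6.58 against 7.23 and 7.43, and Slc7a1, at 4.81 and 4.69 against 4.84 and 5.33. The high ones were Slc7a8, the light chain of a neutral exchanger, at 9.13 and 9.06 against 8.66 and 7.07, and its heavy chain Slc3a2, at 8.70 and 7.81 against 7.80 and 6.47. In both of the high ones Control Day 6 was the lowest array and Control Day 4 came within 1.5-fold of at least 1 Glutamate array.

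Ion transport gave counts of the same kind over few genes. Of 6 tested genes of the sodium pump and ion channels, 4 had both Glutamate arrays below both Control arrays, 0 had both above, and the median difference was -0.52. Of all tested genes 16.0% lay below and 12.7% above. Slc12a2, which is also on the osmolyte list, and Atp1b1 had passed the filter through Control arrays alone. Of the 4 genes with a signal above 5 in both groups, 2 lay below, where 14.1% of all such genes did. Besides Slc12a2 the genes below were Trpm3, a cation channel, with 6.41 and 6.54 in Control against 5.52 and 5.09 in Glutamate (-1.17 ± 0.29), Piezo1, a channel opened by stretch, with 5.19 and 5.41 against 4.76 and 5.15, and Atp1b1, the beta subunit of the sodium pump, with 5.28 and 4.49 against 3.94 and 4.46. In Trpm3 the groups stood 1.85-fold apart at their nearest arrays, while in Piezo1 and Atp1b1 the nearest arrays were almost equal.

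Beyond transport, the 15 largest gaps downward held enzymes, signalling proteins and adhesion proteins. Cyp2b1, a cytochrome P450 that oxidises drugs and steroids, had 6.86 and 4.29 in Control and 2.58 and 2.33 in Glutamate, and its difference of -3.12 had the widest error of these 15 genes (SE 0.94), because the Control arrays themselves were far apart. Its Glutamate signals also lay below the median of all probes on those arrays (2.83 and 2.88), so the size of the difference is uncertain. Cpm, a carboxypeptidase on the cell surface, had 8.52 and 8.87 against 7.11 and 7.04 (-1.62 ± 0.27), with tight arrays in both groups. Inhba, the subunit of activin A, had 6.22 and 6.10 against 4.88 and 4.80 (-1.32 ± 0.25). Chrdl1, a secreted antagonist of bone morphogenetic proteins, had 7.51 and 8.25 against 6.65 and 6.64 (-1.23 ± 0.35).

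Other genes with low signals in this set act in adhesion, chromatin and lipids. Nectin3, a cell adhesion protein, had 6.76 and 6.84 in Control and 5.65 and 5.81 in Glutamate, and Brd2, a reader of acetylated histones, had 7.54 and 7.94 against 5.80 and 6.57. Tent4b, which adds nucleotides to RNA ends, had 5.93 and 5.99 against 4.82 and 4.86. Fads1, a fatty acid desaturase, had 6.12 and 7.98 against 4.88 and 5.25, with a spread of almost 4-fold between the Control arrays, and Mtmr10, a protein of the myotubularin family, had the smallest gap of the 15 at 1.77-fold. All 15 genes had means at least 1.94-fold apart. In 6 of them, Slc5a3, Slc6a6, Cyp2b1, Inhba, Tent4b and Slc38a4, a signal above 5 was found in Control arrays but in neither Glutamate array, so these entered through the group in which they were high.

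**Figure D2:**
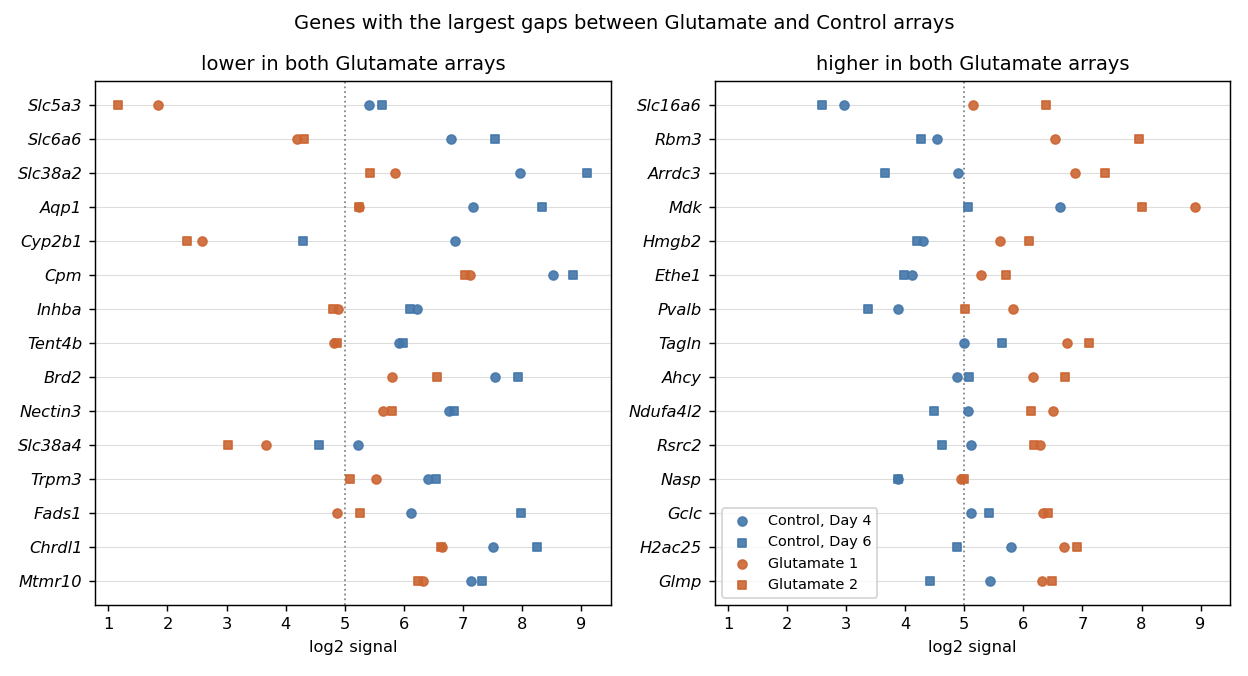
Log2 signal (x axis) of the 15 genes per direction with the largest gap between the nearest Glutamate and Control arrays, ordered by the gap, with blue for Control, orange for Glutamate, circles and squares for the arrays of a group and the dotted line at the filter of 5. The gaps run from 11.9-fold (Slc5a3) to 1.77-fold (Mtmr10) on the lower side and from 4.55-fold (Slc16a6) to 1.84-fold (Glmp) on the higher side.

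On the other side, Slc16a6, a transporter of the monocarboxylate family, had the largest gap upward. Its signals were 2.96 and 2.60 in Control and 5.15 and 6.39 in Glutamate, a difference of 2.99 ± 0.51 with a 95% interval from 1.57 to 4.41. The Control signals of Slc16a6 were near the median of all probes on those arrays (2.79 and 2.94), so the size of this difference is uncertain. Rbm3, an RNA-binding protein known for its induction by cold, had 4.53 and 4.28 against 6.54 and 7.96 (2.85 ± 0.56). Arrdc3, an alpha-arrestin that guides receptors to degradation, had 4.89 and 3.65 against 6.87 and 7.38 (2.85 ± 0.53). Mdk, the secreted growth factor midkine, had 6.62 and 5.06 against 8.90 and 8.01 (2.62 ± 0.67). In these 4 genes the means were 6.13- to 7.94-fold apart, above the 3.47-fold or less of the other 11.

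The relatives of these genes did not share the size of the difference. Of 4 tested monocarboxylate transporters, Slc16a1, which carries lactate and pyruvate, was the other gene with both Glutamate arrays above, at 5.73 and 5.88 against 5.46 and 5.41. Txnip, the inhibitor of thioredoxin that belongs to the same family as Arrdc3 and responds to glucose, had 7.30 and 4.95 in Control and 5.82 and 6.63 in Glutamate, inside the Control range. Its difference of 0.09 ± 0.91 had a 95% interval from -2.41 to 2.60, and it was -1.08 without Control Day 6.

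The remaining genes with large gaps upward work in chromatin, sulphur metabolism, the cytoskeleton and mitochondria. Hmgb2, a chromatin protein of proliferating cells, had 4.30 and 4.19 in Control and 5.60 and 6.10 in Glutamate (1.61 ± 0.30), and Nasp, a histone chaperone, had 3.88 on both Control arrays and 4.95 and 5.002 in Glutamate (1.09 ± 0.24). H2ac25, a histone H2A gene, had 5.80 and 4.88 against 6.68 and 6.91. Histones as a list were mixed, since 3 of 19 tested had both Glutamate arrays above (15.8%) and 4 both below (21.1%). Of all tested genes 12.7% lay above and 16.0% below. Among the 4 was the linker histone H1f5, at 4.00 and 4.15 against 4.95 and 5.05, which had passed the filter through a Control array alone. Histone genes resemble each other closely, so their probes may share signal.

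The enzymes of sulphur metabolism with large gaps were Ethe1, which oxidises persulphides in mitochondria, and Ahcy, which hydrolyses S-adenosylhomocysteine. Ethe1 had 4.12 and 3.97 against 5.28 and 5.71 (1.45 ± 0.29), and Ahcy had 4.87 and 5.08 against 6.16 and 6.70 (1.46 ± 0.32). Tagln, the actin-binding protein transgelin, had 4.999 and 5.64 against 6.74 and 7.11 (1.60 ± 0.35), and Pvalb, the calcium buffer parvalbumin, had 3.88 and 3.37 against 5.83 and 5.01 (1.80 ± 0.42). Ndufa4l2, a mitochondrial protein known as a hypoxia target, had 5.06 and 4.49 against 6.51 and 6.13. Of 15 tested hypoxia targets 2 lay above (13.3%), 1 below (6.67%) and 7 inside the Control range (46.7%). Of all tested genes 12.7% lay above, 16.0% below and 32.3% inside. Rsrc2 (5.11 and 4.62 against 6.28 and 6.17) and the lysosomal membrane protein Glmp (5.44 and 4.42 against 6.32 and 6.48) complete the 15. In 7 of these 15 genes a signal above 5 was found in Glutamate arrays but in neither Control array.

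For glutathione, Gclc, the catalytic subunit of the rate-limiting ligase, lay above control in both arrays, with 5.11 and 5.42 in Control and 6.32 and 6.42 in Glutamate. Its difference was 1.11 ± 0.27 with a 95% interval from 0.36 to 1.85. The modifier subunit of the same enzyme, Gclm, overlapped with Control (7.01 and 6.73 against 7.09 and 6.39), and so did the cystine carrier Slc7a11 (5.47 and 4.17 against 5.11 and 3.30). Nrf2, encoded by Nfe2l2 and the activator of these genes, was at 6.36 and 6.51 against 6.26 and 6.00, and its inhibitor Keap1 at 6.14 and 5.73 against 5.65 and 5.06, both just above Control. Of 20 tested Nrf2 targets and glutathione genes, 3 had both Glutamate arrays above both Control arrays, 1 had both below and 7 lay inside the Control range. The gene below was Chac1, which degrades glutathione and is also an Atf4 target, at 6.83 and 6.07 against 7.81 and 7.07.

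Enzymes that remove peroxide and superoxide depended on which Control array was used. Of 16 tested, 2 had both Glutamate arrays above (12.5%, near the 12.7% of all tested genes) and 0 had both below. Inside the Control range lay 7 (43.75%, where 32.3% of all tested genes did). The 2 were the peroxiredoxins Prdx1, at 6.84 and 6.80 against 6.70 and 4.77, and Prdx5, at 6.62 and 6.17 against 6.17 and 5.40. In both, Control Day 4 stood next to the Glutamate arrays and Control Day 6 was low.

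The stress transcription factors showed no common side. Atf4, which is controlled mainly through its translation, had 9.49 and 9.73 in Control and 9.59 and 9.73 in Glutamate, a difference of 0.05 ± 0.26. Ddit3, the pro-apoptotic factor CHOP, had 8.72 and 6.55 against 7.22 and 7.68, and Atf3 had 4.21 and 5.88 against 5.45 and 7.17, so neither separated the groups. Trib3, a pseudokinase induced by Atf4, had both Glutamate arrays below, at 5.37 and 4.57 against 6.08 and 5.83, and Asns, the asparagine synthetase, overlapped at 7.47 and 6.31 against 6.81 and 4.73. Of 22 tested Atf4 and integrated stress targets, 3 lay above and 3 below, against the background of 12.7% and 16.0%.

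Members of this stress list that lay above were Bcat1, a branched-chain aminotransferase, at 5.56 and 6.33 against 4.82 and 5.33, Slc3a2 and the growth arrest gene Gadd45a, at 8.38 and 8.79 against 8.24 and 7.84. Aminoacyl-tRNA synthetases had 4 of 16 above and 0 below, led by Rars1 at 6.02 and 6.11 against 5.49 and 4.93. Chaperones of the endoplasmic reticulum had 3 of 28 above and 4 below, among them Dnajb9, at 5.88 and 6.04 against 5.21 and 4.81, and Sel1l of the degradation pathway, at 5.40 and 5.28 against 5.65 and 6.74. Heat shock chaperones had 3 of 25 above and 3 below.

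Genes of glutamate, glutamine and proline metabolism, the pathways of the added compound, were also divided. Of 16 tested, 2 lay above (12.5%) and 4 below (25.0%), where 12.7% and 16.0% of all tested genes did, and the median difference was 0.01. Slc25a22 and Slc1a4 had passed the filter through Control arrays alone, and Pycr1 through a Glutamate array alone. Of the 12 with a signal above 5 in both groups, 2 lay below (16.7%, near the 14.1% of all such genes) and 1 above. Besides Slc38a2 the low ones were the mitochondrial glutamate carrier Slc25a22 (4.37 and 4.20 against 4.80 and 5.16), the neutral amino acid carrier Slc1a4 (4.86 and 4.76 against 5.24 and 5.30) and the aspartate aminotransferase Got1 (5.05 and 5.06 against 5.95 and 5.16). Pycr1, which makes proline, lay above at 4.87 and 5.15 against 4.57 and 4.41. The glutamate transporter Slc1a1 was not tested because its highest signal of 3.71 was below the filter, and no probe carried Glul as its single gene.

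Of 9 tested genes of polyol and galactose metabolism, 5 lay inside the Control range (55.6%), 2 above (22.2%) and 1 below (11.1%). Of all tested genes 32.3% lay inside, 12.7% above and 16.0% below. The aldehyde reductase Akr1a1 was above, at 7.83 in each Glutamate array against 7.46 and 6.47, and the phosphoglucomutase Pgm1 at 5.46 and 5.43 against 5.37 and 4.54. Galm, which turns galactose into the form that enters its breakdown, lay below at 5.64 and 5.71 against 5.94 and 6.25. Sord, the sorbitol dehydrogenase, lay inside at 4.90 and 5.04 against 5.20 and 4.29. The nearest arrays of these genes differed by little, so the counts rest on small gaps.

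Crystallins, the main proteins of the fibres, had a median difference of 0.08 over 10 tested genes. All 10 had means within 1.5-fold, where 80.6% of all tested genes did, so the count is near the background. Crygd had 12.90 and 12.77 in Control and 12.91 and 12.93 in Glutamate, and Crygs had 12.49 and 12.25 against 12.59 and 12.51. Mip, the water channel of the fibre membrane, had 11.29 and 11.88 against 11.36 and 11.46, inside the Control range, as was the eye regulator Pax6 at 7.03 and 7.19 against 7.23 and 6.74. Cryaa and Gapdh had no probe to themselves. Dnase2b, the nuclease that removes the nuclei of fibre cells, lay above with 8.03 and 8.11 against 7.18 and 7.30 (0.84 ± 0.25).

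Membrane and regulatory genes of the lens were divided. Of 21 tested genes of the fibre cytoskeleton and membrane, 5 had both Glutamate arrays below (23.8%) and 1 above, where 16.0% of all tested genes were below and 12.7% above. The ephrin receptor Epha2 had 5.26 and 5.52 in Glutamate against 6.69 and 5.94, and the gap junction gene Gja3 had 8.45 and 7.62 against 8.71 and 8.67, while the membrane scaffold Ank2 was the one above at 8.76 and 8.33 against 8.07 and 7.94. Of 20 lens transcription and RNA-binding factors, 5 lay below (25.0%, where 16.0% of all tested genes did) and 1 above. Of the 18 with a signal above 5 in both groups, 5 lay below (27.8%, where 14.1% of all such genes did) and 1 above. The low ones included the epithelial factors Foxe3 (5.85 and 6.05 against 6.88 and 6.25), Meis2 (5.64 and 5.04 against 6.39 and 5.81) and Tfap2a (5.98 and 5.71 against 6.70 and 6.05) and the RNA-binding protein Celf1 (8.02 and 7.87 against 8.18 and 8.96).

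Growth factor signalling had more genes on the lower side. Of 11 tested genes, 6 had both Glutamate arrays below both Control arrays (54.5%, where 16.0% of all tested genes did) and 1 had both above, with a median difference of -0.39. Of these 6, 3 had passed the filter through Control arrays alone, Irs2 and Pdgfa among them, so the filter itself favoured lower values in Glutamate. Of the 7 with a signal above 5 in both groups, 3 lay below (42.9%, where 14.1% of all such genes did) and 1 above. The insulin-like growth factor receptor Igf1r had 6.41 and 6.33 in Control and 5.86 and 5.75 in Glutamate, the adaptor Irs2 had 5.10 and 4.75 against 4.43 and 4.28, and the ligand Pdgfa had 5.32 and 5.56 against 4.74 and 4.86. The receptors Pdgfra (6.11 and 5.27 against 7.21 and 6.38) and Fgfr3 (4.98 and 5.001 against 5.34 and 5.52) were low as well, and Fgfr2, which drives fibre differentiation, was above at 7.87 and 7.94 against 7.62 on both Control arrays. The median of this list was close to -0.4 against either Control array (-0.41 against Day 4 and -0.40 against Day 6).

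Regulators of bone morphogenetic protein, TGF-beta and Wnt signalling gave 6 of 13 below (46.2%, where 16.0% of all tested genes did) and 1 above. Their median difference was -0.36. Of the 6 below, 3 had passed the filter through Control arrays alone, Inhba and Fzd2 among them. Of the 10 with a signal above 5 in both groups, 3 lay below (30.0%, where 14.1% of all such genes did). The Wnt receptor Fzd2 was at 4.11 and 4.22 against 4.74 and 5.15 and the ligand Wnt7b at 7.33 and 7.21 against 7.76 and 7.51. Tgfb2, the main TGF-beta of the eye, had 5.99 and 6.23 against 6.28 and 7.92, where Control Day 6 was high and Control Day 4 almost equal to Glutamate. The Wnt antagonist Dact1 was above, at 5.89 and 5.54 against 5.11 and 5.28.

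Genes of the lens capsule and basement membrane lay below or overlapped. Of 18 tested, 5 had both Glutamate arrays below (27.8%, where 16.0% of all tested genes did), 0 had both above and 14 had a lower mean in Glutamate (77.8%, where 45.2% did), with a median of -0.26. The integrins Itgb1 (6.49 and 6.51 against 6.93 and 7.12) and Itga3 (5.19 and 4.87 against 5.91 and 5.58), which anchor the epithelium to the capsule, and the collagen chaperone Serpinh1 (6.11 and 5.90 against 6.95 and 6.28) were among them. Of 14 tested genes of epithelial-mesenchymal transition and fibrosis, 6 lay below (42.9%) and 1, Tagln, above. The matricellular Ccn2 was low at 6.04 and 5.20 against 6.47 and 7.61.

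Sterol and lipid genes had 4 of 11 below (36.4%, where 16.0% of all tested genes were) and 0 above. The regulator Srebf1 had 7.18 and 6.31 in Control and 5.55 in each Glutamate array (-1.19 ± 0.39), and Insig1, which holds this regulator back, had 7.24 and 8.04 against 6.74 and 7.14. Sc5d, a late enzyme of cholesterol synthesis, had 4.99 and 5.32 against 4.27 and 4.79. The list median of -0.01 did not share the direction of these genes, since 5 of the 11 had higher means in Glutamate.

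Cell cycle genes were mostly under the filter. Of 42 on the array, 7 were tested. Both Glutamate arrays lay above both Control arrays in 3 of the 7 (42.9%, where 12.7% of all tested genes did) and below in 0. The 3 were Hmgb2, the nuclear transport GTPase Ran (6.89 and 7.58 against 6.23 and 6.75) and Dut (6.35 and 6.32 against 6.30 and 5.90). Hmgb2 had passed the filter through Glutamate arrays alone, and in Dut the nearest arrays were almost equal. Of the 6 with a signal above 5 in both groups, 2 lay above. Pcna, the sliding clamp of replication, overlapped at 5.22 and 5.43 against 5.41 and 4.52, and Mki67 was not tested, with a highest signal of 4.32.

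Genes of p53, apoptosis and acute responses had examples on either side. The antiapoptotic Bcl2 had 5.15 and 5.11 in Control and 4.49 and 3.84 in Glutamate, and the p53 target Perp had 5.43 and 6.38 against 4.76 and 4.54. Plk2 (3.96 and 2.74 against 4.28 and 6.36), the early response factor Klf6 (5.19 and 5.42 against 5.48 and 7.62) and the acute phase serpin Serpina3n (5.67 and 5.78 against 5.92 and 8.84) were below, but in these 3 genes Control Day 6 was at least 4-fold above Control Day 4. Bcl2, Perp and Plk2 had passed the filter through Control arrays alone. Of 17 tested genes of p53 and apoptosis, 3 lay below (17.6%, where 16.0% of all tested genes did) and 3 above. Of the 12 with a signal above 5 in both groups, 0 lay below and 3 above. Stat3, the transcription factor of the acute phase, was above with 6.05 and 6.59 against 5.65 and 5.32 (0.84 ± 0.33). The metallothioneins, which bind zinc, had wide spreads, with Mt1 at 7.48 and 6.41 against 7.28 and 6.05 and Mt2A at 9.83 and 8.48 against 10.02 and 5.85.

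Large gene groups of protein synthesis, protein breakdown and respiration were near Control Day 4 and above Control Day 6. For 67 tested genes of oxidative phosphorylation the Glutamate arrays had median signals of 7.10 and 6.83, against 7.31 on the Day 4 and 5.60 on the Day 6 Control array. The median difference was 0.45 against both Control arrays, -0.24 against Day 4 and 1.15 against Day 6, so its direction turned with the Control array. In 34 of the 67 both Glutamate arrays lay inside the Control range, where 32.3% of all tested genes did. The exceptions included Ndufa5 of complex I, at 7.45 and 7.53 in Glutamate against 6.89 and 6.87, and Atp5mg of the ATP synthase, at 7.51 and 7.81 against 7.0001 and 7.06, in which the 2 Control arrays were alike.

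Ribosomal proteins, cytosolic and mitochondrial, followed the same order of arrays. The 48 cytosolic ones had median signals of 10.04 and 8.52 in Control and 9.79 and 9.65 in Glutamate, and 28 of them lay inside the Control range, 6 above (12.5%, near the 12.7% of all tested genes) and 0 below. The 6 above included Rpl23 (11.79 and 11.82 against 11.70 and 10.51) and Rpl7a (10.51 and 10.69 against 10.42 and 9.58). Among 50 mitochondrial ones 23 lay inside, 8 above (16.0%, where 12.7% of all tested genes did) and 0 below, with Mrpl49 at 5.78 and 5.42 against 4.98 and 3.88. Of these 8, 4 had passed the filter through Glutamate arrays alone, Mrpl49 among them, so the filter itself favoured higher values in Glutamate. Of the 39 with a signal above 5 in both groups, 4 lay above (10.3%), where 466 of all 3888 such genes did. Ribosomal protein genes have many processed copies in the genome, so their probes may share signal.

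Shares above both Control arrays were larger than the 12.7% of all tested genes in the proteasome (30.6%), the lysosome (35.7%) and translation factors (24.4%), which describes these lists without a test. In the proteasome 11 of 36 tested genes lay above and 1 below, with the lid subunits Psmd8 at 5.19 in each Glutamate array against 4.18 and 4.53 and Psmd3 at 6.57 and 6.74 against 6.27 and 5.66. Its median difference was -0.02 against Day 4 and 1.10 against Day 6. In the lysosome and its proton pump 10 of 28 lay above and 1 below, with a median of 0.11 against Day 4 and 1.02 against Day 6, so that this list was on the higher side against either Control array. The pump subunits Atp6ap1 (7.68 and 8.05 against 7.42 and 6.66) and Atp6v0d1 (8.36 and 7.94 against 7.70 and 6.77) and the cholesterol carrier Npc2 (7.62 and 8.18 against 7.41 and 6.18) were above, and progranulin, Grn, was below at 7.60 and 7.83 against 8.02 and 9.54.

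Translation factors had 10 of 41 above and 2 below, with Eif3d at 7.11 and 7.17 against 6.73 and 6.25. Splicing factors and hnRNPs had 13 of 46 above (28.3%) and 5 below, and in some the Control arrays were close to each other, as in Hnrnpc (7.10 and 7.55 against 6.55 and 6.67) and Srsf6 (5.66 and 5.54 against 4.94 and 5.06). The median of the splicing list was 0.08 against Day 4 and 0.09 against Day 6. Of 12 genes of serine, one-carbon and polyamine metabolism 3 lay above (25.0%) and 0 below, Ahcy and the polyamine enzyme Odc1 (6.70 and 7.11 against 6.58 and 4.95) among them. Of 10 glycolytic genes 3 lay above (30.0%) and 0 below, with Ldha at 6.97 and 7.12 against 6.25 and 6.84. Of all tested genes 12.7% lay above and 16.0% below.

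**Figure D3:**
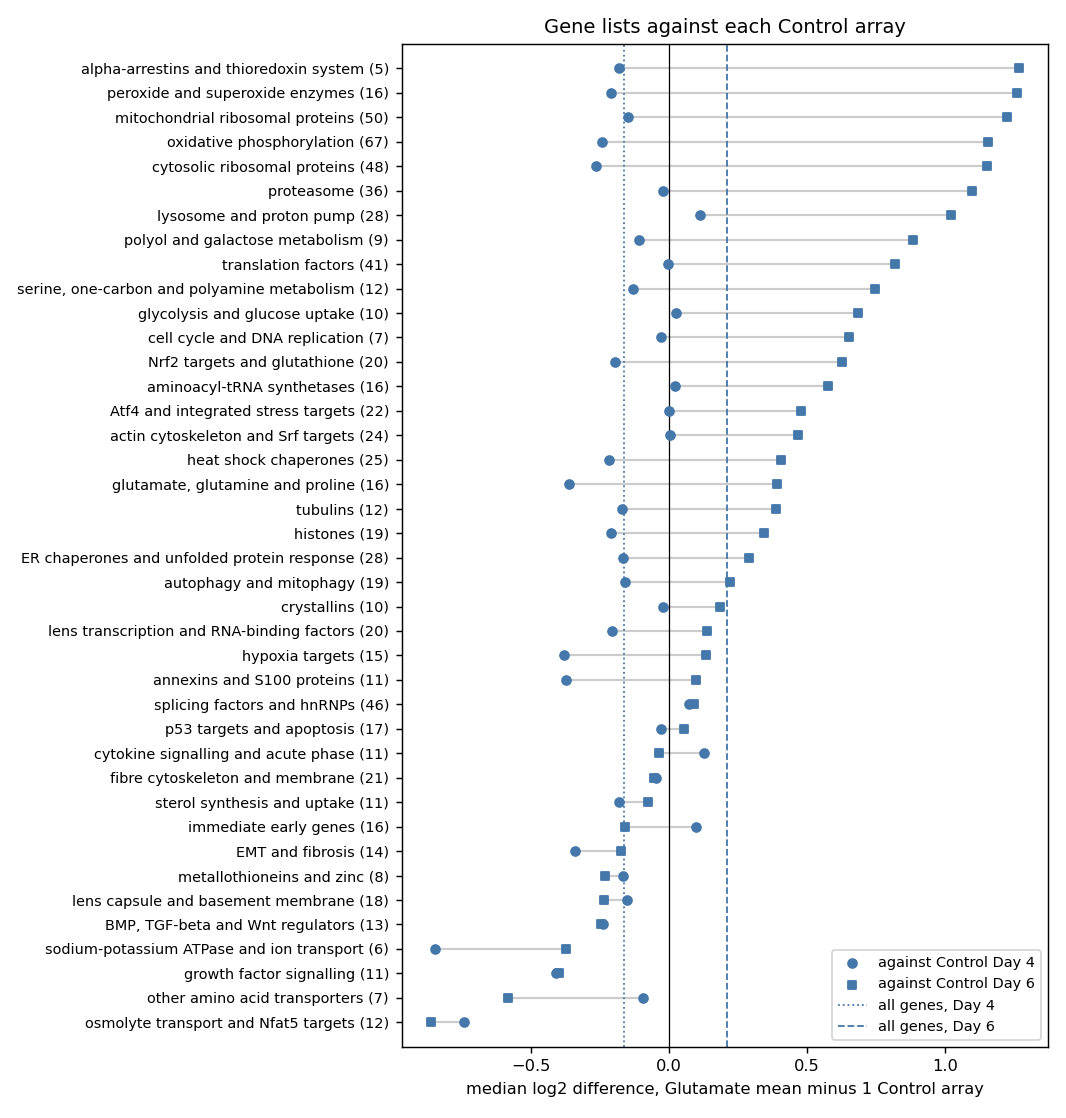
Median log2 difference (x axis) between the Glutamate mean and Control Day 4 (circles) or Control Day 6 (squares) for each gene list with at least 5 tested genes (y axis, number of tested genes in parentheses), with dotted and dashed lines for the medians of all 4684 genes (-0.16 and 0.21). The circle and square of oxidative phosphorylation lie on different sides of 0 (-0.24 and 1.15), and those of osmolyte transport lie together on the lower side (-0.74 and -0.86).

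The Control arrays were farther from each other than the Glutamate arrays were. Over the tested probes they were at least 2-fold apart at 1483 probes (29.9%), 1317 of them lower in Control Day 6, and the Glutamate arrays at 308 (6.21%). Across these probes Pearson's r was 0.79 between the Control arrays, 0.93 between the Glutamate arrays, and 0.95 and 0.89 between Control Day 4 and each Glutamate array, as a description over probes of 4 arrays that were normalized together. The Glutamate mean was at least 2-fold above Control Day 4 at 55 probes and below it at 233, and at least 2-fold above Control Day 6 at 968 and below it at 163. It was at least 2-fold above both at 20 probes and below both at 19. Without Control Day 4 the count of separated probes was 633 higher and 103 lower, and without Control Day 6 it was 26 and 85.

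**Figure D4:**
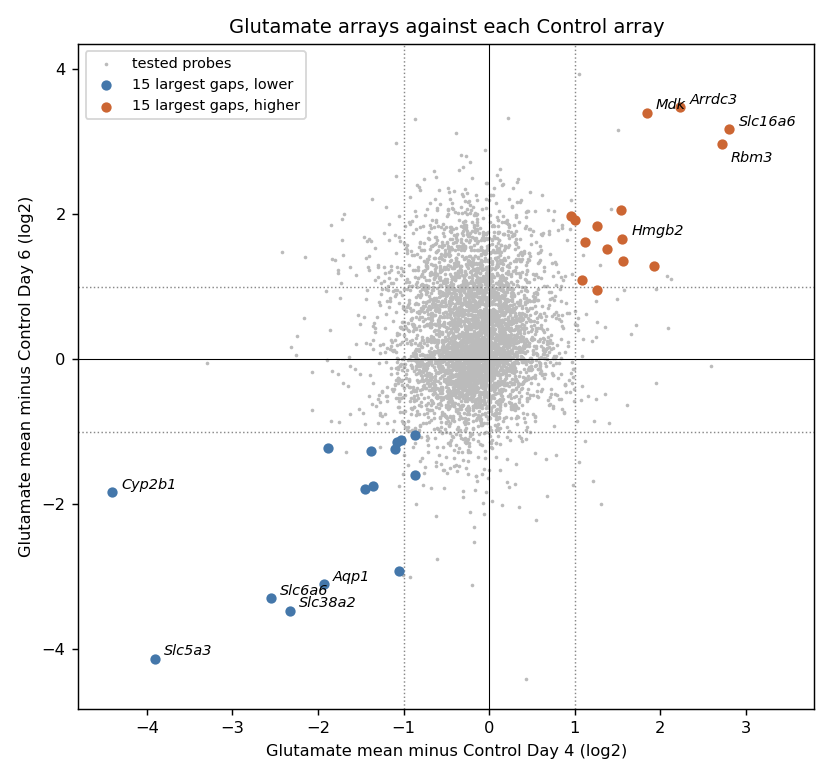
Mean log2 signal of the Glutamate arrays minus Control Day 4 (x axis) and minus Control Day 6 (y axis) for the 4958 tested probes (grey), with the 15 genes of the largest gaps in each direction in blue (lower) and orange (higher) and dotted lines at 2-fold. The cloud is taller than it is wide, with 968 probes above the upper dotted line and 55 beyond the right one, and the coloured genes lie on the same side of both Control arrays.

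The label of the tissue was checked against markers. All 13 listed markers of lens fibres and 13 of 14 of lens epithelium were above 5 in at least 1 of the 4 arrays. Markers of ciliary body and iris (0 of 10), retina (0 of 10) and vessels and erythrocytes (0 of 7) were not above 5. The mean log2 signal over the 14 epithelial markers was 7.14 and 6.75 in Control and 6.79 and 6.50 in Glutamate, and over the 13 fibre markers 9.95 and 9.68 against 10.09 and 9.78. The part of these small shifts in the values of epithelial genes such as Aqp1 and Foxe3 was not tested.

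Among leukocyte markers 1 of 13 was above 5, and it was Cd68, a lysosomal protein of macrophages, at 3.85 and 3.51 in Control and 4.73 and 5.15 in Glutamate (1.26 ± 0.31). The mean over the 13 leukocyte markers was 2.91 and 2.71 against 2.97 and 2.87, so the list as a whole stayed at low signals in every array. Of 9 markers of fibroblasts and smooth muscle, 1, Des, was above 5, at 6.26 and 6.04 against 6.23 and 4.48. Their mean was 2.90 and 2.92 in Control and 3.03 and 2.75 in Glutamate, and these values stand beside Tagln, which smooth muscle also expresses.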

How the data were processed

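RNA of each lens sample was hybridised by the authors to 1 GeneChip array for rat genes (Rat Gene 2.0 ST), and all 7 arrays were normalized jointly by Robust Multi-array Average. The deposited table gives 1 log2 signal for each probe and array, with no detection calls. Versions of the tools are not given in the sources used here. Precision is limited by the number of arrays, and signals of different probes were not compared.

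Probes were named from the platform annotation (18511 with 1 gene, 575 with several), and 17599 without a gene were left out. Of the 4958 tested probes, 182 name several genes. Gene lists and named genes used probes with 1 gene and, for a gene with several, the probe with the highest mean. The filter of 5 cut through a dense range: the highest signal was between 5 and 5.25 in 683 probes and between 4.75 and 5 in 730. Just inside was Dusp7 (5.0002), just outside Map3k3 (4.9999).

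The comparison was fitted in limma 3.58.1 (R 4.3.3, 1 mean per group, 2 residual and 2.05 prior degrees of freedom, Benjamini-Hochberg adjustment), which was tested on simulated data, and tables were made with Python 3.11.15. Values were exactly equal in both Glutamate arrays at 208 probes and in both Control arrays at 96. The Galactose arrays entered only an alternative estimate of the spread. The genes named are the 15 largest gaps per direction, any gene called, a fixed set of lens, osmotic, redox and stress genes, and 2 to 4 members per list, with members of the osmolyte list in full. Cd68, Des and Dnase2b were named after their values were seen. The members and lists were chosen with earlier results of these data known. The alternatives were other filters, normalizations, variance models, thresholds and gaps, 1 probe per gene, array weights, and leaving out each array. Opacity and RT-qPCR results were not analysed here.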

Additional observations from a re-analysis of the deposited data

Results flagged for a closer look

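Probes without a platform gene were outside the comparison, and some of them were higher in both Glutamate arrays than in the Control arrays. Of 2826 such probes above 5 in at least 1 of the 4 arrays, 8 had both Glutamate arrays at least 2-fold above both Control arrays, and 17 had both at least 2-fold below. Groups of 2 arrays are too small to look for single arrays that stand apart.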

How the results depend on the processing

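The 0 calls at an adjusted p under 0.05 were found under every alternative run, among them leaving out the probes with equal values, which was added after seeing the data. The smallest adjusted p over all of them was 0.0624, with all 7 arrays for the spread. At an unadjusted p under 0.05 the counts were 39 higher and 60 lower. A gap of any size separated 626 probes upward and 770 downward, and a gap of 4-fold 2 and 3. Leaving out each array in turn gave 20 to 633 separated probes upward and 24 to 103 downward, where 1 array fewer had to be separated. The median of the osmolyte list was -1.24 with a filter above 6 and -0.32 without a filter. Under the alternatives that leave out no array, 129 of 130 named genes kept their direction. Genes whose groups do not overlap cannot turn when an array is left out, so leaving out arrays says nothing of them. The log2 difference turned with the array left out in Akr1b1 (-0.62 to 1.27), Txnip (-1.08 to 1.27), Gclm (-0.22 to 0.49), Slc7a11 (-0.29 to 1.52), Ddit3 (-1.27 to 0.90), Atf4 (-0.075 to 0.17), Pcna (-0.085 to 0.80), Mt1 (-0.33 to 0.89), Mt2A (-0.86 to 3.31), Cryab (-0.12 to 0.33), Mip (-0.47 to 0.12), Pax6 (-0.12 to 0.37), Nuak2 (-0.63 to 0.043), Sgk1 (-0.14 to 0.41), Sord (-0.23 to 0.68) and Des (-1.67 to 0.079), and in Atf4 also after a further quantile normalization (-0.32); the cause was not tested. No paired analysis was possible because the Control arrays carry no replicate number. In 13 of the 30 genes with the largest gaps, the arrays of 1 group were both at or below 5.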
